A study of Mus musculus with 17 samples.

Results

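The astrocyte and Bergmann glia genes described here are 29 genes of 31438 in the deposited tables, listed by name as markers of these cells. They comprise 2 genes that are strong in Bergmann glia, 8 genes of immature and radial glia, and 19 genes of mature astrocytes. RNA was measured by sequencing whole cerebella of C57BL/6 mice at postnatal day 3 after removal of the meninges. All mice carried Math1-Cre, a recombinase driven in granule neuron progenitors. In the first background Bax was flanked by loxP sites and Bak was null in all cells, and 5 samples with loxP-flanked Atr as well were set against 4 controls without it. In the second background p53 was flanked by loxP sites, and 5 samples with loxP-flanked Atr were set against 3 controls. Samples with loxP-flanked Atr are called Atr-deleted, and the backgrounds are called Bax/Bak and p53, by the genotype labels. Atr encodes the kinase that protects cells from replication stress, Bax and Bak the pore proteins of mitochondrial apoptosis, and p53 a transcription factor of the DNA damage response.

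Bergmann glia are the radial astrocytes of the cerebellum. Their cell bodies lie beside the Purkinje cells, and their fibres run to the surface and guide granule neurons inward. They and the other cerebellar astrocytes derive from the ventricular zone and not from the Math1 lineage, so in these mice the loxP-flanked genes are thought to be intact in most of them, while Bak is lost everywhere. In the first postnatal weeks glia lower the genes of the radial state, such as nestin, and raise those of transmitter uptake, water and ion transport and gap junctions. In a tissue sample, a change in the number of glia and a change in the RNA of each of them cannot be told apart.

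The libraries of 16 samples held 42987953 to 100659645 estimated counts, so 1 count was worth at most 0.0233 CPM (counts scaled to a common library total). The remaining library, Atr-deleted replicate 3 of the p53 background, held 13601 counts, with both lane columns identical, and was left out. Its sample name repeats the number of replicate 1. Sample names begin with a number whose meaning the labels do not give. Bax/Bak control replicates 1 and 2 belong to number series 100019, replicates 3 and 4 to series 1842, and all Atr-deleted Bax/Bak samples to series 1836. All Atr-deleted p53 samples and p53 control replicate 1 belong to series 1843, and p53 controls 2 and 3 to series 1845. In the Bax/Bak background, number series and genotype cannot be told apart. Atr-deleted replicate 2 of the p53 background stood apart, with 9.02% of its counts from mitochondrially encoded genes. That share was 1.81% to 2.55% in the Bax/Bak controls and 3.53% to 4.35% in their Atr-deleted group, whose ranges do not overlap, and 2.13% to 3.23% in the p53 controls. The part of this share in the results below was tested only by leaving out each library and by removing those genes. Their removal alters only the totals and scaling, so it cannot show what the unequal shares stand for. It changed no member's call in the Bax/Bak background and ended that of Aldh1l1 in the comparison of the Atr effects. Y-linked RNA was low in Bax/Bak control 1, in Atr-deleted Bax/Bak replicates 1, 2 and 3 and in Atr-deleted p53 replicate 2, and a term for it ended the calls of Fabp7, Fgfr3 and Dao in the Bax/Bak background. The labels do not say how far replicates are independent, so p-values measure only how these libraries vary, some of which may be technical.

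All 29 genes were detected in all 4 groups. On a per-length scale (CPM per kilobase of transcript), Fabp7, the fatty-acid binding protein of radial glia, had the highest level in Bax/Bak controls, at 1336 ± 52.7 (SD, n = 4). Slc1a3, the glutamate transporter GLAST that Bergmann glia carry in quantity, followed at 361 ± 20.4, and Vim, the intermediate filament vimentin, at 308 ± 37.8 per kilobase. The levels of Slc1a3 and Vim lay within their summed SDs of each other, while Fabp7 was far above both. Glul, the glutamine synthetase, stood at 131 ± 11.8 and Aqp4, the water channel of astrocyte endfeet, at 124 ± 23.8 per kilobase, which their spread does not separate. At the low end were Gjb6 at 6.76 ± 4.81, Fgfr3 at 4.60 ± 1.08, Ntsr2 at 3.82 ± 0.46 and Dao at 0.0746 ± 0.0204 per kilobase. Dao, the D-amino acid oxidase, rested on 4 to 14 counts in each of these controls. Genes of the Bergmann and immature classes thus led the list at this age, and Aqp4 was the most abundant membrane gene of the mature class per length.

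The first comparison asked how these genes differed with Atr deletion in the Bax/Bak background. Most glial genes were higher in the Atr-deleted cerebella, in both the immature and the mature class. With edgeR's quasi-likelihood F-test over 17405 genes (Benjamini-Hochberg adjusted p, threshold 0.05), 23 of the 29 rose and 1 fell, Fabp7. Of all genes tested, 44.5% were called, 22.5% higher and 22% lower. The median log2 fold change of the members was 0.58, beside 0.04 over all genes. For 19 members all Atr-deleted libraries lay above all controls, as they did for 17.1% of all genes, and the groups were apart in either direction for 38.3%. The sizes ranged from 4.08-fold for Gfap to 1.22-fold for Slc1a3 among the genes that rose.

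**Figure D1:**
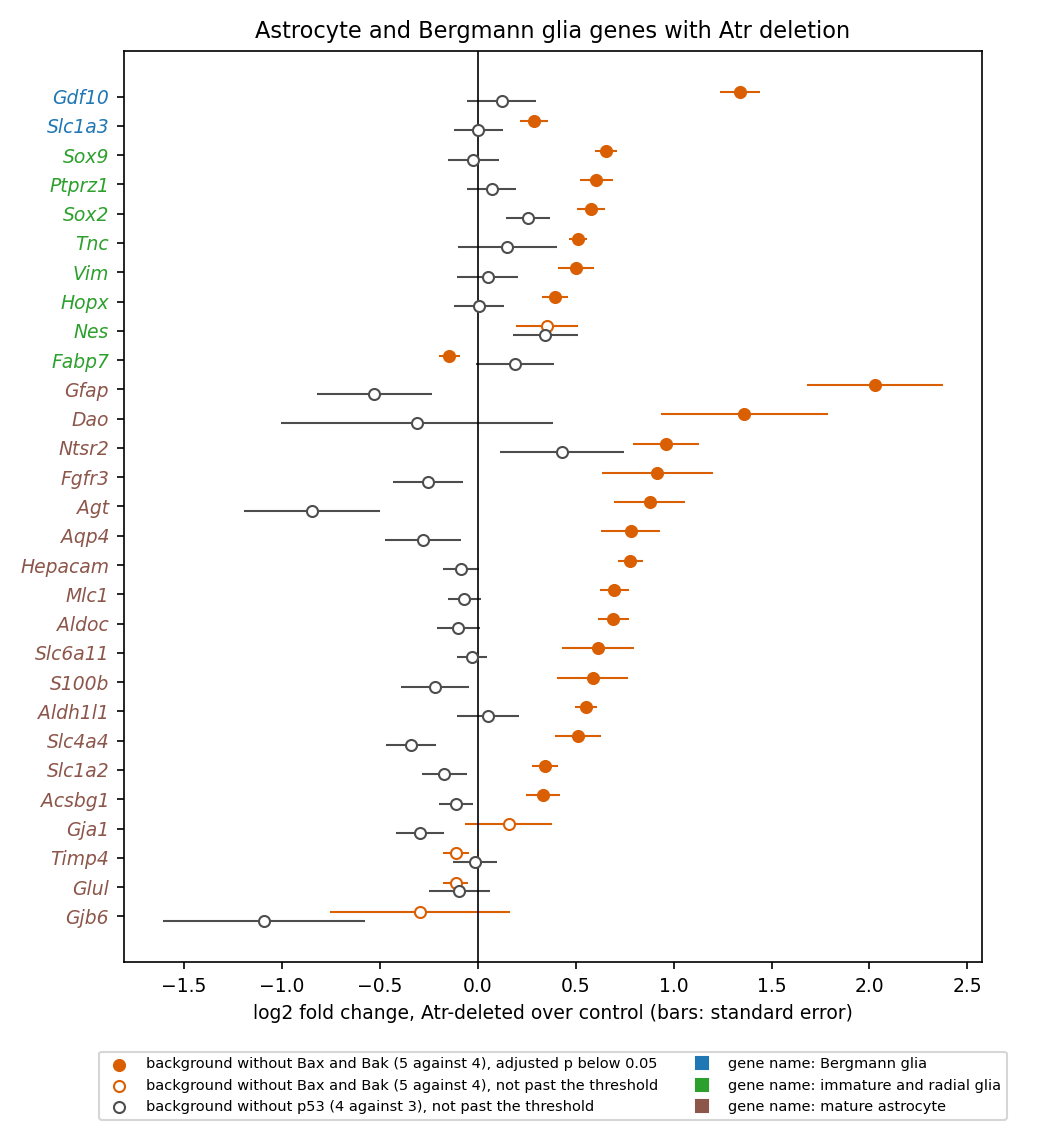
Log2 fold changes of the 29 genes (x axis, Atr-deleted over control) with standard errors, by gene and class, in the Bax/Bak background (5 against 4 libraries, orange) and the p53 background (4 against 3, grey). Filled points passed an adjusted p of 0.05, which 24 genes did in the Bax/Bak background and 0 in the p53 background.

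The Bergmann glia genes both rose, by unequal amounts. Gdf10, a secreted factor of the BMP family made by Bergmann glia, stood at 251, 262, 212 and 230 CPM in the controls and at 472, 653, 634, 624 and 600 CPM in the Atr-deleted libraries. The groups were far apart, and the log2 fold change was 1.34 ± 0.10 (SE, edgeR adjusted p = 5.96e-06). Slc1a3 stood at 1418, 1610, 1456 and 1528 CPM in the controls against 1559, 1878, 1802, 2017 and 1803 CPM. Here control replicate 2 lay above the lowest Atr-deleted library, and the change was 0.29 ± 0.07 (edgeR adjusted p = 0.00775). In the test over transcripts its main form, Slc1a3-201, did not pass (0.21, edgeR adjusted p = 0.123). Gdf10 thus had the larger difference and Slc1a3 the higher level, also per length.

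Of the 8 genes of immature and radial glia, 6 rose, 1 fell and 1 did not pass the test, with a median log2 fold change of 0.51. Sox9, a transcription factor that starts and maintains glial fate, was at 58.1, 57.9, 54.1 and 51.0 CPM in the controls and at 77.2, 86.4, 87.6, 89.3 and 89.0 CPM in the Atr-deleted libraries (0.65 ± 0.06, edgeR adjusted p = 1.17e-05). The Atr-deleted values fell in a narrow band except replicate 1, and the groups did not overlap. Its relative Sox2, a factor of neural stem cells and astrocytes, was at 48.5 to 58.7 CPM against 70.2 to 83.3 CPM (0.58 ± 0.07, edgeR adjusted p = 8.87e-05). The extracellular matrix protein gene Tnc was at 298 to 337 CPM against 443 to 463 CPM (0.51 ± 0.05, edgeR adjusted p = 1.53e-05). The receptor phosphatase Ptprz1, which binds matrix proteins and pleiotrophin, was at 349 to 461 CPM against 541 to 677 CPM, a rise of 0.60 ± 0.08. Vim rose by 0.50 ± 0.09 and Hopx, a small homeodomain protein of Bergmann glia and their progenitors, by 0.39 ± 0.07, and neither gene's groups overlapped.

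Fabp7 and Nes departed from the rest of the immature class. Fabp7 stood at 1093, 1080, 1015 and 1113 CPM in the controls and at 996, 907, 951, 1036 and 912 CPM in the Atr-deleted libraries. The 3 highest libraries were controls and the 3 lowest Atr-deleted, but control replicate 3 lay below Atr-deleted replicate 4. Its change of -0.15 ± 0.05 (edgeR adjusted p = 0.0462) was lost when any of 4 libraries was left out, with an edgeR adjusted p of up to 0.12 without control replicate 4. With the controls of either number series alone the change was -0.16 and -0.18 and did not pass the threshold. Nes, the intermediate filament nestin of stem cells, stood at 130, 143, 97.3 and 88.8 CPM in the controls against 127, 137, 140, 181 and 139 CPM. Its controls split by number series, with series 100019 among the Atr-deleted values and series 1842 below them all (0.35 ± 0.16, edgeR adjusted p = 0.102).

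Of the 19 mature astrocyte genes, 15 rose, 0 fell and 4 did not pass the test, with a median log2 fold change of 0.61. Gfap (ENSMUSG00000020932, chr11:102887336-102900912 in GRCm38), the intermediate filament of mature and reactive astrocytes, had the largest fold change of the 29. It stood at 132, 101, 232 and 225 CPM in the controls and at 490, 1022, 589, 523 and 858 CPM in the Atr-deleted libraries. Every Atr-deleted value was above the highest control, and the spread within the group was wide, with replicates 2 and 5 highest (2.03 ± 0.35, edgeR adjusted p = 0.00198). S100b, a calcium-binding protein of astrocytes, had the same libraries highest, at 60.3 and 59.4 CPM, and was at 38.2 to 43.4 CPM in the other Atr-deleted libraries. Its controls were at 26.1, 28.2, 38.8 and 37.3 CPM, so the groups overlapped (0.59 ± 0.18, edgeR adjusted p = 0.0262).

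**Figure D2:**
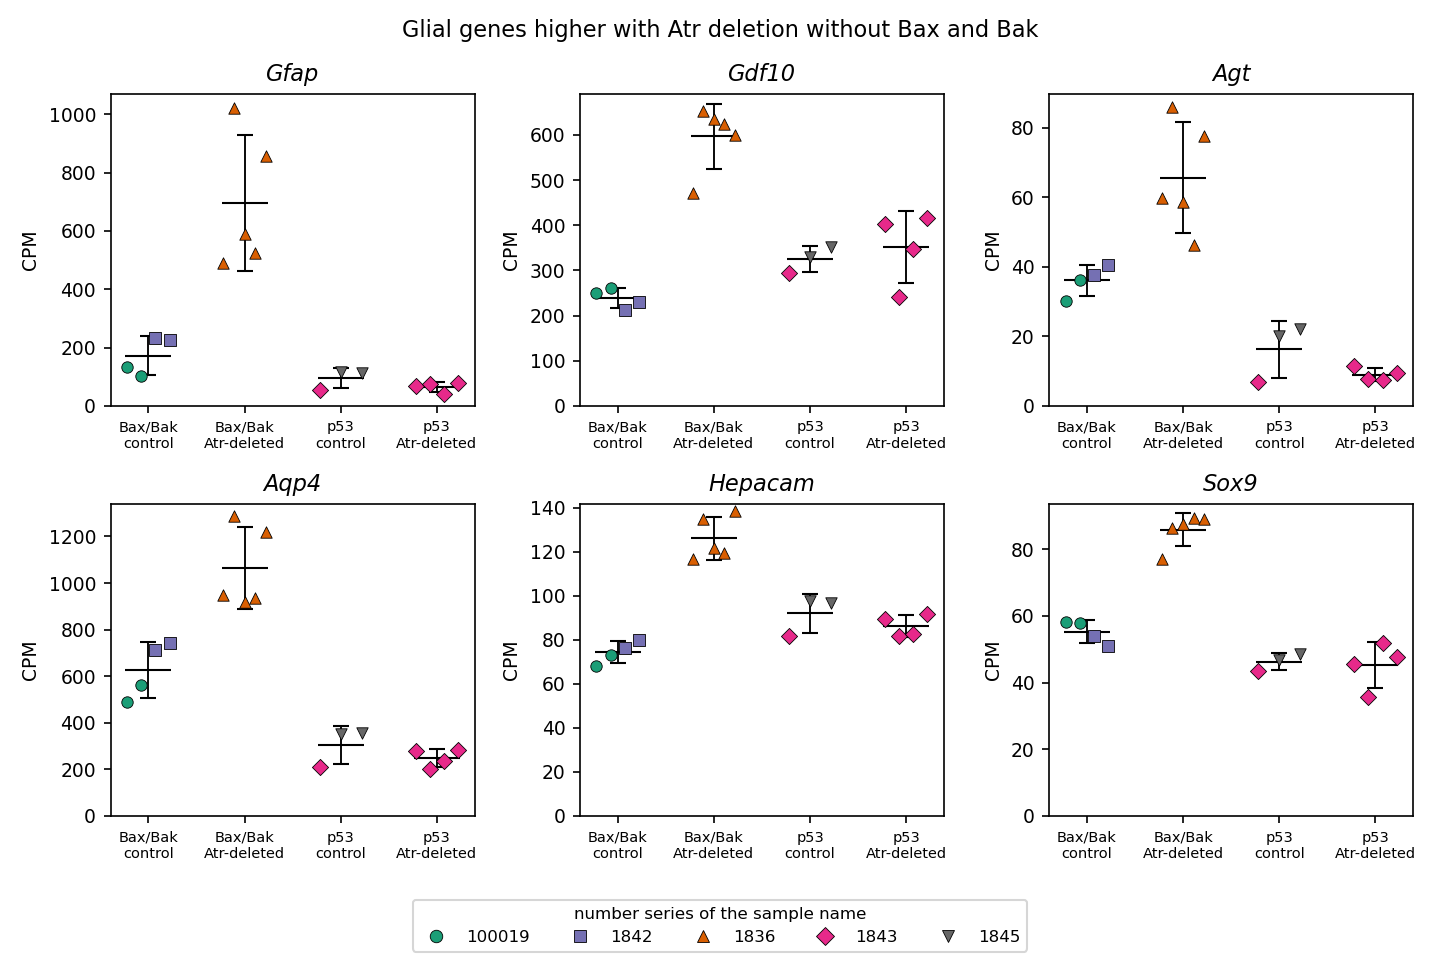
CPM (y axis, from 0) of 6 genes in each of 16 libraries by group, with the group mean and SD as a bar and the number series of the sample name as colour and shape. In these genes the 5 Atr-deleted Bax/Bak libraries lie above the 4 controls, as Gfap does with 490 to 1022 against 101 to 232 CPM.

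The water and ion transport genes of the astrocyte membrane rose together. Aqp4 was at 490, 561, 713 and 742 CPM in the controls and at 951, 1287, 921, 937 and 1220 CPM in the Atr-deleted libraries (0.78 ± 0.15, edgeR adjusted p = 0.00247). Its highest control lay below its lowest Atr-deleted library. Hepacam encodes GlialCAM, an adhesion protein that binds the membrane protein MLC1. Hepacam was at 68.1, 73.0, 76.5 and 80.0 CPM against 117, 135, 122, 120 and 138 CPM (0.78 ± 0.07, edgeR adjusted p = 9.1e-06), and Mlc1 at 103 to 115 CPM against 155 to 199 CPM (0.70 ± 0.07, edgeR adjusted p = 3.53e-05). Both partners showed tight groups with no overlap. Slc4a4, the sodium bicarbonate cotransporter, was at 174 to 238 CPM against 250 to 336 CPM (0.51 ± 0.12), again without overlap.

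The transporters of glutamate and GABA in the mature class, and its neurotensin and FGF receptors, rose as well. Slc1a2, the glutamate transporter GLT-1 that rises as astrocytes mature, was at 245, 287, 267 and 282 CPM against 335, 363, 309, 323 and 364 CPM (0.34 ± 0.06, edgeR adjusted p = 0.00132). Slc6a11, the GABA transporter GAT-3, was at 174, 200, 149 and 134 CPM against 313, 190, 210, 221 and 306 CPM. Its Atr-deleted replicates 1 and 5 stood well above the other 3, and replicate 2 lay within the controls (0.61 ± 0.18, edgeR adjusted p = 0.0243). Ntsr2, a neurotensin receptor of astrocytes, was at 4.90 to 6.54 CPM against 8.52 to 14.0 CPM (0.96 ± 0.17, edgeR adjusted p = 0.000821). Fgfr3, an FGF receptor of astrocytes and their progenitors, was at 12.3 to 22.1 CPM against 20.7 to 45.6 CPM, and its groups overlapped (0.92 ± 0.28, edgeR adjusted p = 0.0292). Fgfr3, Ntsr2 and Slc6a11 had replicates 1 and 5 as their highest Atr-deleted libraries, as did Gjb6, whereas 15 of the 29 members had replicates 2 and 5.

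The metabolic and secreted genes completed the class. Agt encodes angiotensinogen, which astrocytes secrete in the brain, and stood at 30.1, 36.3, 37.6 and 40.6 CPM in the controls and 59.9, 85.9, 58.7, 46.3 and 77.7 CPM in the Atr-deleted libraries. The groups did not overlap (0.88 ± 0.18, edgeR adjusted p = 0.00384). Aldoc, the glycolytic aldolase C found in astrocytes and in bands of Purkinje cells, was at 137 to 160 CPM against 213 to 280 CPM (0.69 ± 0.08). Aldh1l1, a folate enzyme used as a general astrocyte marker, was at 244 to 264 CPM against 321 to 380 CPM (0.55 ± 0.06). Acsbg1, an acyl-CoA synthetase, was at 47.7 to 61.5 CPM against 62.2 to 75.6 CPM (0.33 ± 0.09), with less than 1 CPM between the groups. Dao was at 0.0900 to 0.153 CPM against 0.164 to 0.555 CPM (1.36 ± 0.43, edgeR adjusted p = 0.0227), which is 33 counts in all in the controls and 112 in the Atr-deleted libraries.

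Gjb6, Gja1, Glul and Timp4 did not pass the test in either direction with all 4 controls. Gjb6 and Gja1 encode connexin 30 and connexin 43, the proteins of astrocyte gap junctions. Gjb6 was at 25.9, 18.2, 6.50 and 5.13 CPM in the controls against 12.2, 10.6, 10.05, 9.71 and 13.2 CPM (-0.29 ± 0.46, edgeR adjusted p = 0.636). The Atr-deleted values lay between the controls of series 100019 and those of series 1842. Gja1 also divided the controls, at 266 and 234 CPM in series 100019 and 138 and 134 CPM in series 1842. With Atr deletion it was at 188 to 248 CPM (0.16 ± 0.22, edgeR adjusted p = 0.597). There replicate 5, at 248 CPM, lay above the lower control of series 100019. Glul was at 332 to 394 CPM against 311 to 356 CPM (-0.11 ± 0.06), and Timp4, a metalloproteinase inhibitor, at 57.2 to 73.7 CPM against 57.4 to 61.9 CPM (-0.11 ± 0.07), with overlap in both. Of the 31-base words of Glul, 15.5% occur in transcripts of another gene, so its level is less certain than those of the other members, where at most 2.31% do.

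**Figure D3:**
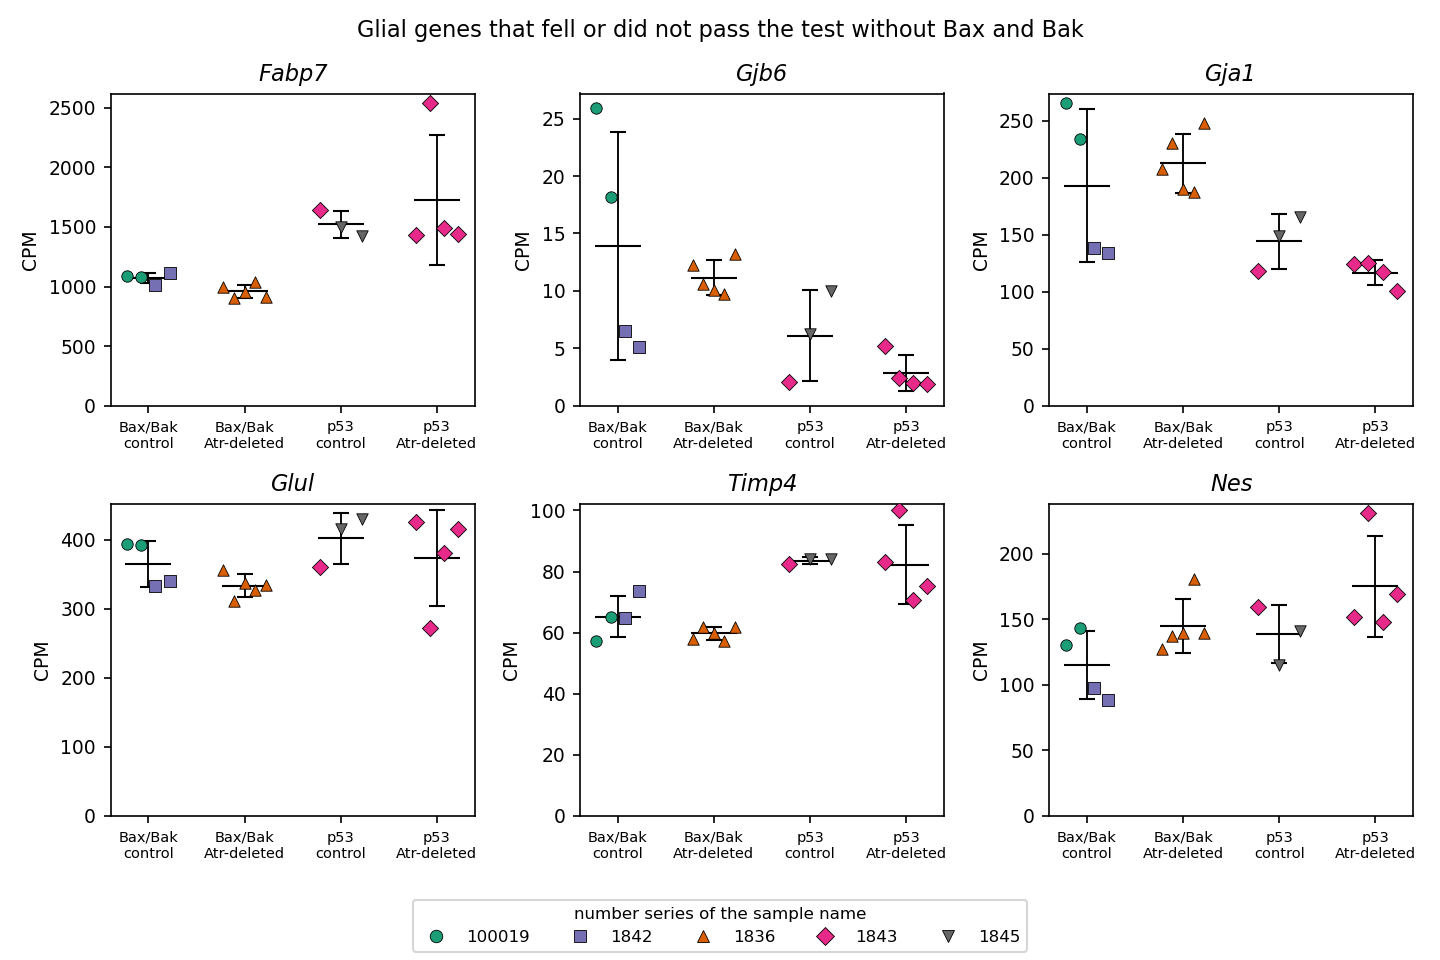
CPM (y axis, from 0) of Fabp7, which fell, and of the 5 members that did not pass the test in the Bax/Bak background, by library and group, with mean and SD and the number series as colour and shape. Gjb6 and Gja1 divide the Bax/Bak controls by number series, and Fabp7 has 1 library of the p53 background at 2538 CPM.

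Of the 23 rises, 14 were called in each of 23 alternatives, namely those of Gdf10, Hopx, Sox9, Sox2, Tnc, Ptprz1, Slc1a2, Aqp4, Gfap, Aldh1l1, Aldoc, Ntsr2, Hepacam and Mlc1. Leaving out a library ended the call of S100b (control 1 or 2, Atr-deleted 2 or 5), Fgfr3 (control 2, 3 or 4, Atr-deleted 1 or 5), Dao and Acsbg1 (control 1 or 2, Atr-deleted 2) and Slc6a11 (control 1, 3 or 4). The highest edgeR adjusted p so reached was 0.0971 for S100b, 0.0826 for Fgfr3, 0.0661 for Dao, 0.0604 for Acsbg1 and 0.0674 for Slc6a11. With only the controls of series 100019, 21 of the 23 were called, and Gjb6 (-0.97, edgeR adjusted p = 0.00125) and Glul (-0.22, edgeR adjusted p = 0.0146) fell. With only those of series 1842, 17 of the 23 were called. Those lost were S100b, Fgfr3, Dao, Acsbg1, Slc4a4 (0.32, edgeR adjusted p = 0.0733) and Agt (0.72, edgeR adjusted p = 0.0628). With these controls Gjb6 (0.92, edgeR adjusted p = 0.000841), Gja1 (0.62, edgeR adjusted p = 0.00228) and Nes (0.61, edgeR adjusted p = 0.00448) were called higher as well, while Timp4 fell (-0.24, edgeR adjusted p = 0.0126). The direction of Gjb6 therefore depends on which controls are used, and 16 members rose with the controls of either series alone.

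Upstream sequences are printed for Gfap, Gdf10 and Agt, members with large rises, and for Fabp7, the member that fell, to let the stretches before their starts be compared. They come from RefSeq (GRCm38.p6) and run 5′ to 3′ on the gene's strand up to the RefSeq start, or for Fabp7 up to the first annotated exon. Capitals mark a match to TTCNNNGAA, the core bound by STAT factors, or to TGGGAA, the core bound by the Notch effector RBPJ, on either strand.
Gfap (chr11:102897201-102897450, - strand): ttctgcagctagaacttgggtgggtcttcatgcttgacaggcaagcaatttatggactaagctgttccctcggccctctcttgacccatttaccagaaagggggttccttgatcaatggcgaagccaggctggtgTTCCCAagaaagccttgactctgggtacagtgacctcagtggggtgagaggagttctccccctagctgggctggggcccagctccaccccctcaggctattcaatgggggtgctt
Gdf10 (chr14:33923337-33923586, + strand): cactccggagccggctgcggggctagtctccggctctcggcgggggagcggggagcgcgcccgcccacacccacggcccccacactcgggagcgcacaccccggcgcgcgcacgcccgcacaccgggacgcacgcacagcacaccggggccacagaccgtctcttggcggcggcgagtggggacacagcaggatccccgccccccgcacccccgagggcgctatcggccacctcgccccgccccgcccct
Agt (chr8:124569707-124569956, - strand): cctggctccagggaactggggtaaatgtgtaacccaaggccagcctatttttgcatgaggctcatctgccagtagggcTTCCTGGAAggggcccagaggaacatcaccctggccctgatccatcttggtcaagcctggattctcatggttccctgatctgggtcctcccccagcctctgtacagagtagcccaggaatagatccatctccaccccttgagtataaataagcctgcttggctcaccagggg
Fabp7 (chr10:57784673-57784880, + strand): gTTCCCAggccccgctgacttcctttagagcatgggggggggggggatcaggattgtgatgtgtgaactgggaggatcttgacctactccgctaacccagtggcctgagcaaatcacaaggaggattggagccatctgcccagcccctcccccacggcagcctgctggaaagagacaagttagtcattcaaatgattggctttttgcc
The table held 27 of the 29 members, without Sox9 and Aqp4. In the 250 bases before the start, TTCNNNGAA was found in Slc1a3, Aldoc, Ntsr2, Agt and Acsbg1, 18.5% of the 27 members, and in 7.02% of 32851 promoters. TGGGAA was found in 10 members (37%) and in 21.6% of promoters, and TTGGCA, a core of nuclear factor I sites, in Tnc, S100b and Hepacam (11.1%) and in 12.3% of promoters. Agt has the STAT core in this stretch, Gfap and Fabp7 have the RBPJ core, and Gdf10 has none of the 3. These matches describe the letters of short windows only. No binding was measured.

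The second comparison asked the same of the p53 background, over 4 Atr-deleted libraries and 3 controls. There the glial genes showed no change that passed the test. On simulated data this fit recovered 37% of 1.5-fold changes, against 69% for the Bax/Bak fit. Changes of that size can therefore be missed here. Of the 29 members 0 were called in either direction by edgeR's quasi-likelihood test over 17348 genes, where 0.0461% of all genes were called, every one of them higher. At an unadjusted p below 0.05 edgeR gave 4 members, of which Sox2 was higher and Slc4a4, Gja1 and Agt lower, while 6.58% of all genes had such a p. DESeq2 and limma-voom called 0 members too. The median log2 fold change was -0.07 over the members, 0.11 over the immature class and -0.17 over the mature class, beside 0.01 over all genes. In none of the 29 were the groups apart, which they were in 8.21% of all genes (3.59% higher, 4.62% lower).

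By role, the Bergmann gene Gdf10 stood at 295, 330 and 352 CPM in the p53 controls and at 402, 241, 347 and 415 CPM with Atr deletion (0.12 ± 0.18, edgeR adjusted p = 0.896). The Atr-deleted values lay on both sides of the controls. Slc1a3 differed by 0.00 ± 0.13 on the log2 scale. Of the immature genes, Sox2 was at 59.5, 45.7 and 54.1 CPM against 64.7, 56.3, 69.4 and 61.8 CPM (0.26 ± 0.11, edgeR adjusted p = 0.753). Fabp7 was at 1641, 1498 and 1424 CPM against 1435, 2537.5, 1493 and 1439 CPM, where the high value belongs to the library with 9.02% mitochondrial counts. Without that library the Atr-deleted values all lay within the range of the controls.

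Agt, Gfap, Aqp4 and Gjb6, of the mature class, differed among the p53 controls. Agt was at 6.92, 20.01 and 22.04 CPM in the controls and at 11.6, 7.64, 7.46 and 9.43 CPM with Atr deletion (-0.85 ± 0.35, edgeR adjusted p = 0.727). Gfap was at 54.8, 117 and 113 CPM against 68.6, 75.3, 40.7 and 77.3 CPM (-0.53 ± 0.29), and Aqp4 at 210, 351 and 356 CPM against 280, 200, 237 and 284 CPM (-0.28 ± 0.20). In these 3 genes control 1 sat among the Atr-deleted libraries, or in Agt just below them, and controls 2 and 3 sat above them. Gjb6 was at 2.10, 6.25 and 10.02 CPM against 5.20, 2.42, 1.95 and 1.86 CPM (-1.09 ± 0.52), with the same split. Hepacam and Mlc1, which had small errors, differed by -0.08 and -0.07 on the log2 scale.

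The controls of the p53 background divided by number series. Control 1, of the same series as all Atr-deleted libraries, lay below both other controls in 23 of 29 members (17 of 19 mature, 4 of 8 immature), and within the Atr-deleted range in 28. Of all 17348 genes, 40.2% had control 1 below both other controls and 68% had it within that range. Set against the controls of series 1845, the 5 libraries of series 1843 were apart in 11 members. They were lower in 9, all of the mature class (Aqp4, Gfap, Slc4a4, Gjb6, Gja1, Hepacam, Agt, Mlc1 and Acsbg1), and higher in Sox2 and Nes, where 11.3% of all genes were lower and 8.39% higher. The sizes were -1.59 for Gjb6, -1.29 for Agt, -0.86 for Gfap and -0.54 for Aqp4, as log2 ratios of means. With control 1 as the only control, the fitted change with Atr deletion was 0.39 for Agt, 0.26 for Gfap and 0.26 for Aqp4. With controls 2 and 3 it was -1.21 (edgeR adjusted p = 0.0932), -0.81 and -0.49. The sign of these 3 estimates thus followed the controls, and none passed the threshold either way. These splits were looked at after the values were seen.

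Whether Atr deletion had unequal effects in the backgrounds was tested in 1 fit of all 16 libraries, as the Bax/Bak effect minus the p53 effect. It was higher in the Bax/Bak background for 14 of the 29 members and lower for 0, while 8.08% of all 18166 genes were higher and 8.09% lower. Those 14 were Gdf10, the immature genes Sox9 and Ptprz1, and 11 mature genes. Gfap had the largest difference (2.55 ± 0.50, edgeR adjusted p = 0.00469), followed by Agt (1.71 ± 0.42, edgeR adjusted p = 0.0137) and Gdf10 (1.21 ± 0.20, edgeR adjusted p = 0.000991). Hepacam (0.86 ± 0.11, edgeR adjusted p = 0.000106) and Mlc1 (0.76 ± 0.11, edgeR adjusted p = 0.00033) were the most precise. The others were Fgfr3 (1.16), Aqp4 (1.05), Slc4a4 (0.84), Aldoc (0.78), Sox9 (0.67), Ptprz1 (0.53), Slc1a2 (0.51), Aldh1l1 (0.49) and Acsbg1 (0.44). Slc6a11 (0.64, edgeR adjusted p = 0.052) and S100b (0.79, edgeR adjusted p = 0.0552) just missed the threshold.

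How many members passed depended on the controls used. With p53 controls 2 and 3 alone, 15 passed, the 14 and S100b. With the Bax/Bak controls of series 100019 alone 12 passed, and with those of series 1842 alone 10. These control sets were chosen after the data were seen. With p53 control 1 alone, 3 members passed, namely Gdf10 (1.07, edgeR adjusted p = 0.0481), Hepacam (0.68, edgeR adjusted p = 0.0119) and Mlc1 (0.64, edgeR adjusted p = 0.0297). The lone control is there assumed to vary like the other groups. Gfap was at 1.75 (edgeR adjusted p = 0.135), Aqp4 at 0.51 (edgeR adjusted p = 0.401) and Agt at 0.48 (edgeR adjusted p = 0.543). Without p53 control 3, 9 members passed, and the calls of Ptprz1, Aldh1l1, Fgfr3, Agt and Acsbg1 were lost. Over 16 fits that each left out a library, Aldh1l1 was lost in 12 (edgeR adjusted p up to 0.118), Fgfr3 in 11 (up to 0.107, without p53 control 2), Acsbg1 in 8 (up to 0.087, without Atr-deleted Bax/Bak replicate 5), Ptprz1 in 4 (up to 0.0739) and Agt in 1 (0.0506). The remaining 9 of the 14 passed in all 16 of these fits. Gdf10, Hepacam and Mlc1 passed in every alternative run.

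The controls of the backgrounds were compared too, and the share of members that differed was near that of all genes. Bax/Bak and p53 controls come from separate tables and number series, so genotype, table and series cannot be told apart. Aqp4 (1.04 ± 0.20, edgeR adjusted p = 0.00335), Agt (1.15 ± 0.32, edgeR adjusted p = 0.0246) and S100b (0.71 ± 0.21, edgeR adjusted p = 0.0271) were higher in the Bax/Bak controls, where 18% of all genes were called and 8.71% were higher. Fabp7 (-0.50 ± 0.15, edgeR adjusted p = 0.0308), Hepacam (-0.31 ± 0.08, edgeR adjusted p = 0.0155) and Timp4 (-0.36 ± 0.10, edgeR adjusted p = 0.0197) were lower, where 9.3% of all genes were. Aqp4, at 626 ± 120 (SD, n = 4) against 305 ± 82.8 CPM (SD, n = 3), alone of these passed in every alternative. Leaving out a library ended the call of Fabp7 (Bax/Bak 1, 2 or 3, or any p53 control), S100b (Bax/Bak 3 or 4, p53 1 or 3), Hepacam (Bax/Bak 1 or 2, p53 2 or 3), Timp4 (Bax/Bak 1 or 3, p53 2 or 3) and Agt (Bax/Bak 3 or 4). The highest edgeR adjusted p was 0.106 for Fabp7, 0.115 for S100b, 0.0757 for Hepacam, 0.0691 for Timp4 and 0.0563 for Agt.

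To set immature against mature genes, the mean log2(CPM + 1) over the 8 immature genes and over the 19 mature genes was taken in each library. In the Bax/Bak background both were higher with Atr deletion. The immature mean was 7.48 to 7.69 in the controls against 7.89 to 8.09, and the mature mean 6.11 to 6.17 against 6.51 to 6.89. Neither pair of ranges overlapped. The mature mean minus the immature mean was -1.48, -1.52, -1.36 and -1.37 in the controls and -1.20, -1.20, -1.39, -1.59 and -1.14 with Atr deletion. The balance thus differed by 0.13 between the group means, beside a pooled SD of 0.14. Atr-deleted replicate 4 had the lowest value of the 9. The difference was 0.20 without it, and as low as 0.09 when another library was left out. With the median over genes in place of the mean it was 0.27. In the p53 background the balance was -2.04, -1.56 and -1.66 in the controls and -1.99, -1.97, -2.11 and -2.13 with Atr deletion. It differed by -0.30 (pooled SD 0.19), and by -0.44 to -0.20 when a library was left out, with -0.20 without control 2. Control 1 lay among the Atr-deleted libraries while controls 2 and 3 lay above them. The division of the genes into classes is a choice, and leaving Hopx, Sox9 and Ptprz1 out of the immature class reversed neither difference.

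**Figure D4:**
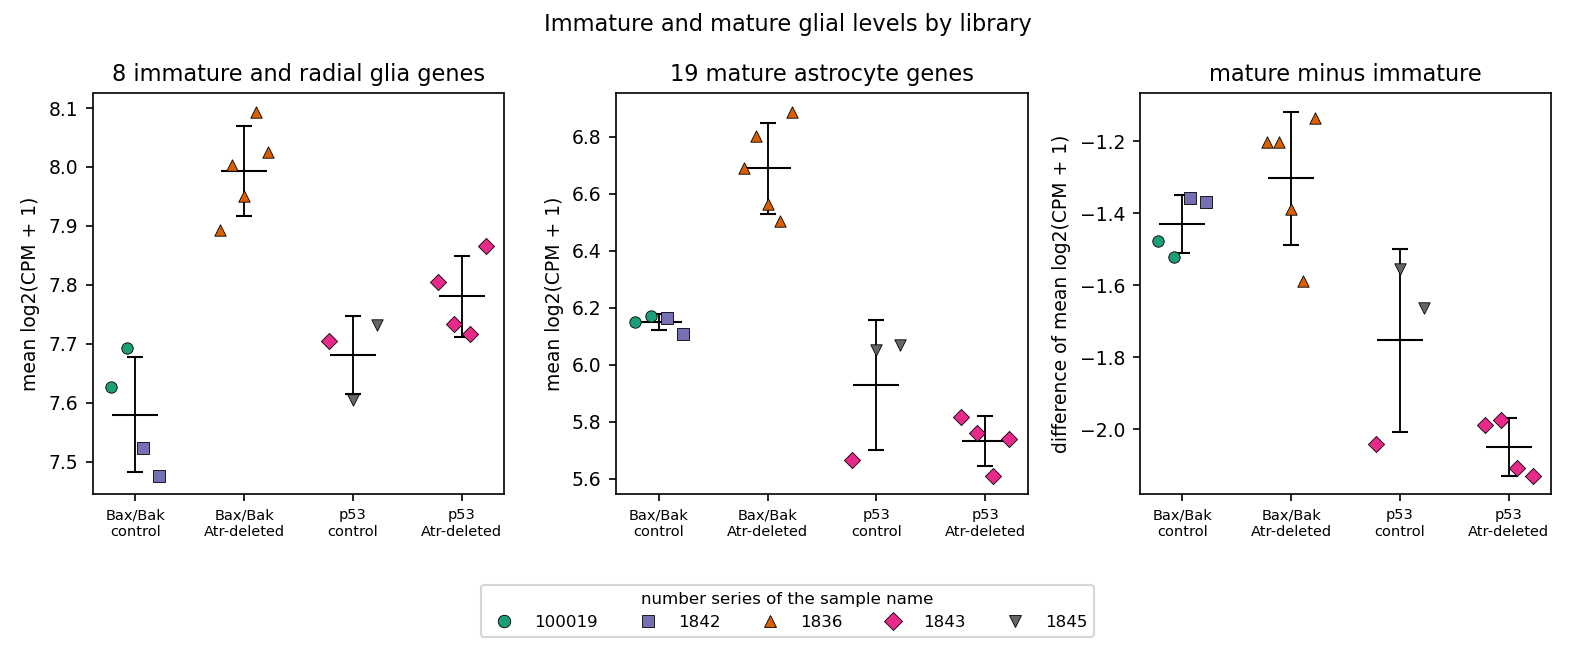
Mean log2(CPM + 1) per library (y axes, not from 0) of the 8 immature genes (left) and of the 19 mature genes (middle), and mature minus immature (right), with group mean and SD as bars and the number series as colour and shape. Immature and mature levels both lie higher in the Atr-deleted Bax/Bak libraries, whereas the balance overlaps its controls and p53 control 1 sits at -2.04 with the Atr-deleted p53 libraries.

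The Bax/Bak controls also divided by number series, beyond Gjb6 and Gja1. Series 100019 was apart from series 1842 in 20 members, higher in 11 and lower in 9, where 26.3% of all genes were higher and 25.6% lower. The log2 ratio of means, 100019 over 1842, was 1.92 for Gjb6, 0.88 for Gja1 and 0.56 for Nes, and it was -0.97 for Gfap, -0.49 for S100b and -0.47 for Aqp4. The summed CPM of 8 markers of the meninges, whose cells can carry connexins, was 783 and 613 in series 100019 and 295 and 263 in series 1842. For 8 markers of the choroid plexus the sums were 3817 and 1817 against 67.1 and 67.3 CPM. The part of these tissues in the spread of Gjb6, Gja1 and Nes was not tested.

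Transcripts of the same gene were compared in the Bax/Bak background over 51843 transcripts. The main Gfap transcript, Gfap-201, rose by 1.96 ± 0.31 (edgeR adjusted p = 0.00291), and the minor Gfap-202 by 2.55 ± 0.56 (edgeR adjusted p = 0.0134). Gfap-201 made up 98.7% ± 0.205 (SD, n = 4) of Gfap counts in the controls and 98.1% ± 1.02 (SD, n = 5) with Atr deletion, so the rise was in the main form. Both long Tnc transcripts rose alike, Tnc-203 by 0.46 and Tnc-204 by 0.42 on the log2 scale. Ptprz1-201, of 8068 bases, and Ptprz1-206 rose by 0.64 and 0.51, while the shorter Ptprz1-204 was at 0.09 (edgeR adjusted p = 0.695). Vim-206 rose by 1.20 (edgeR adjusted p = 0.0159), and Vim-201, which held 83.6% of Vim counts in the controls, was at 0.31 (edgeR adjusted p = 0.104). The assignment of counts among transcripts of 1 gene is an estimate, and the error of that step is not in the values used here.

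Further glial genes, in lists that are no members, moved in the same direction in the Bax/Bak background, where 22.5% of all genes rose and 22% fell. Of 30 other astrocyte genes 22 rose and 0 fell, with a median of 0.52, among them the membrane protein gene Ttyh1 (0.81), Ndrg2 (0.55) and the sodium pump subunit Atp1b2 (0.89). Against that median Gfap stood 1.5 higher and Gdf10 0.81 higher on the log2 scale, and Gjb6 stood at -0.82 and Fabp7 at -0.67. Of 7 genes of glial transmitter handling 5 rose and 0 fell, including the glycine transporter Slc6a9 (0.76) and the neutral amino acid transporter Slc1a4 (0.35). Of 8 genes of the endfoot complex 4 rose and 0 fell, among them the dystrobrevin Dtna (0.36) and the chloride channel Clcn2 (0.51).

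Regulators were divided. Of 13 glial transcription factors 6 rose, among them Rfx4 (0.56), Stat3 (0.46) and Sox8 (0.61), while Etv5 (-0.46) and Nfib (-0.35) fell. Of 14 Notch pathway genes 6 rose, led by the receptors Notch1 (0.84, edgeR adjusted p = 8.72e-07) and Notch3 (0.79) and the ligand Dll1 (0.56). The target Hey1 (-0.60) and the effector Rbpj (-0.30) fell. Of 32 reactive astrocyte genes tested, of 33 listed, 12 rose, led by Hspb1 (0.93), Ggta1 (0.81) and Serpina3n (1.11), and Fkbp5 fell (-0.46). In the p53 background 0 genes of these 6 lists were called by edgeR. Their smallest p-values belonged to Emp1 (0.37, edgeR adjusted p = 0.352), F3 (-0.57, edgeR adjusted p = 0.541), Zbtb20 (-0.30), Gjb2 (-1.08), Hes5 (-0.21) and Slc6a9 (0.16). The difference between the Atr effects was higher for 14 of the 30 other astrocyte genes, 4 of 13 glial factors (Sox8, Stat3, Id3 and Rfx4) and 5 of 14 Notch genes (Dll1, Nrarp, Notch1, Hes5 and Notch3). It was also higher for 4 of 7 genes of transmitter handling and 2 of 8 of the endfoot, with Dtna. Of the 32 reactive genes tested, 3 were higher (Ggta1, Hspb1 and Psmb8), near the share of all genes. That share was 8.08% higher and 8.09% lower. The difference was lower for Hey1 (-0.48).

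Markers of other cell types moved in the same Bax/Bak libraries. Most granule cell and division markers fell, in a comparison where 22% of all genes fell and 22.5% rose. These were 10 of 12 progenitor markers (Sfrp1 at -1.13, Insm1 at -0.97), 7 of 12 granule neuron markers (Stmn2 at -0.50) and 12 of 12 markers of dividing cells (Ccne2 at -1.04). Of the progenitor markers 1 rose. The summed CPM of the dividing markers was 1811 to 2017 in the controls and 921 to 1135 with Atr deletion. Markers of 4 cell types outside the granule lineage rose in most cases: 7 of 10 of the oligodendrocyte lineage (Cspg4 at 1.35), 8 of 10 of microglia (Laptm5 at 0.68), 6 of 8 of Purkinje cells (Itpr1 at 0.71) and 7 of 8 of inhibitory interneurons (Pax2 at 0.82). Of the oligodendrocyte lineage 1 marker fell. The medians of these 4 lists were 1.07, 0.49, 0.55 and 0.59, beside 0.58 for the glial members. CPM are shares of a total, so a lower share of granule lineage RNA raises the shares of other cells, and its part in the glial rises was not tested.

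The remaining marker lists had smaller shares called than the other cell types, in a comparison where 22.5% of all genes rose and 22% fell. Of 10 endothelial and pericyte markers 3 rose (Pdgfrb, Tek and Rgs5), of 7 ependymal markers 1 rose (Tmem212), and of the choroid plexus and meninges 0 of 8 each were called by edgeR (smallest p for Otx2, -0.32, edgeR adjusted p = 0.245, and Lum, -0.59, edgeR adjusted p = 0.0793). The choroid plexus sums were spread widely within both groups, at 67.1 to 3817 CPM in the controls and at 2790, 116, 1139, 36.2 and 44.4 CPM in Atr-deleted replicates 1 to 5. No marker in any list was at 0 in a group. The oligodendrocyte markers summed to 802 to 1374 CPM in the controls and to 1941, 2297, 1355, 1419 and 2866 CPM in Atr-deleted replicates 1 to 5. Replicates 2 and 5, the highest in Gfap, S100b and 13 further members, were the highest here too. In the p53 background 0 markers of these lists were called, and the dividing markers summed to 1828 to 1856 CPM in the controls and 1415 to 1944 CPM with Atr deletion.

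**Figure D5:**
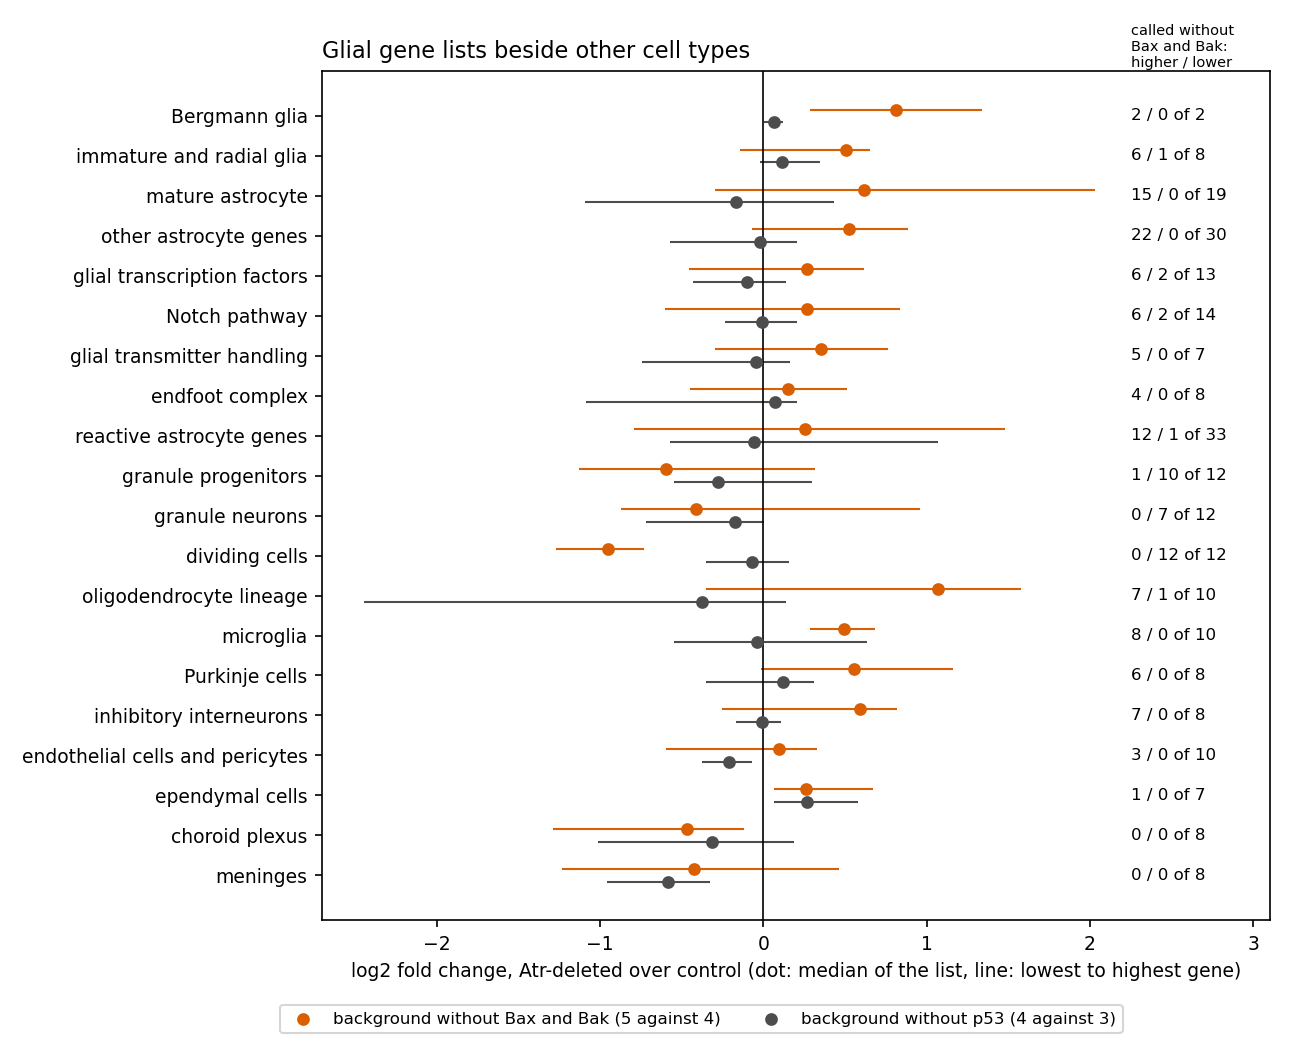
Log2 fold change (x axis, Atr-deleted over control) of each gene list, with a dot at the median and a line from its lowest to its highest gene, in the Bax/Bak background (5 against 4 libraries, orange) and the p53 background (4 against 3, grey). The counts at the right are genes called higher and lower without Bax and Bak. In the Bax/Bak background the medians of the member classes and the other glial lists lie to the right of 0. There those of the granule lists, dividing cells (-0.95), choroid plexus and meninges lie to the left.

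As a share of all gene counts, the 29 members took 0.703% to 0.748% in the Bax/Bak controls and 0.969% to 1.10% with Atr deletion, with no overlap. In the p53 background the share was 0.700% to 0.772% in the controls and 0.693% to 0.805% with Atr deletion. In the shallow library that was left out, 109 of 13438 gene counts fell on 22 members, a share of 0.811% (exact 95% interval 0.666% to 0.978%, counting error only).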

How the data were processed

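RNA from 17 cerebella was sequenced as poly(A) libraries with a strand-marking kit, per the labels' protocols. The deposited tables hold estimated counts per transcript from kallisto 0.42.4, with edgeR also named, per the submitters' processing notes. Those notes name the builds mm9 and GRCm38, and their roles are not given in the sources used here. The estimated counts of 2 lanes per library were added and summed to genes of GENCODE M21, which matched 92284 of 94080 transcripts. The gene sums were then rounded. Unmatched transcripts held 0.779% to 1.04% of counts and were left out.

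Genes were tested with edgeR 4.0.16 (R 4.3.3): filterByExpr, TMM scaling, robust quasi-likelihood fits by genotype, and p-values adjusted after Benjamini and Hochberg (threshold 0.05). The Atr comparisons were fitted within each background, and the comparisons across backgrounds in 1 fit of 16 libraries. Levels (CPM) are counts over TMM-scaled library totals. Fold changes are edgeR's log2 estimates with standard errors. Alternatives were DESeq2 1.42.0, limma-voom (limma 3.58.1), other scalings and filters, no robust step, mitochondrial genes removed, a Y-linked term, the most abundant transcript, other control sets and leaving out each library. Fits were tested on simulated data. There the Bax/Bak fit recovered 69% of 1.5-fold changes, the p53 fit 37% and the fit of the difference 33%. Of 3-fold changes they recovered 96%, 92% and 89%. In the same order, these fits made 21, 11 and 3 false calls, over 17222, 17148 and 17908 genes. All 29 members are named. From other lists up to 3 genes per direction by smallest p are named, or the gene of smallest p where none passed, for the comparisons in which a list is described. Some genes this rule would name are not reported here. The members, lists and tests were chosen with earlier results of these data known. Scripts ran in Python 3.11.15 with pandas 2.3.3.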

Additional observations from a re-analysis of the deposited data

Results flagged for a closer look

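Among 90 sets of 4 or 5 libraries (each member and the mature-minus-immature balance in 3 groups), 7 had a library far from the rest of its group by Dixon's 95% criterion, which chance passes in about 1 of 20. In the Atr-deleted p53 group, replicate 2, the library with 9.02% mitochondrial counts, stood high in Fabp7 (2537.5 CPM), Hopx (88.8 CPM) and Fgfr3 (22.01 CPM), and replicate 1 stood high in Gjb6 (5.20 CPM). In the Atr-deleted Bax/Bak group, replicate 1 was low in Sox9 (77.2 CPM) and Aldh1l1 (321 CPM), and replicate 4 was high in Nes (181 CPM).

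The difference of the Atr effects between the backgrounds passed the threshold in 14 members by edgeR's interaction test, with log2 values of 1.21 for Gdf10, 0.67 for Sox9, 0.53 for Ptprz1, 0.51 for Slc1a2, 1.05 for Aqp4, 2.55 for Gfap, 0.49 for Aldh1l1, 0.84 for Slc4a4, 0.78 for Aldoc, 1.16 for Fgfr3, 0.86 for Hepacam, 1.71 for Agt, 0.76 for Mlc1 and 0.44 for Acsbg1. Leaving out p53 control 3 left 9 of these calls.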

How the results depend on the processing

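No paired analysis was possible because the replicate numbers only follow accession order. In the Bax/Bak background the count of members called lower (1, Fabp7) was 0 with upper-quartile scaling, without the robust step, at a threshold of 0.01, in the fit of 16 libraries and with a Y-linked term. It was 2 with controls of series 100019 only, and 0 to 2 when a library was left out. The count called higher (23) was 19 to 23 when a library was left out. The log2 fold change of Gjb6 turned to 0.92 with controls of series 1842 only. The 14 differences between the Atr effects became 7 at a threshold of 0.01, 5 on the most abundant transcript, 3 with p53 controls of series 1843 only (chosen after seeing the data) and 9 to 16 when a library was left out. Between the controls, the 3 members called higher became 1 at a threshold of 0.01 and 1 on the most abundant transcript, and 1 to 4 when a library was left out. The 3 called lower became 0 at both settings, and 0 to 5. The mature-minus-immature difference of 0.13 became 0.27 as a difference of medians. In the p53 background 0 members were called under every alternative run. Fewer transcripts per gene, a stricter threshold or fewer libraries are the construction of these alternatives, and the cause of the other changes was not tested. Over all genes the Bax/Bak calls were 3919 higher and 3825 lower, with 3594 and 4060 under median-of-ratios scaling and 4297 and 3568 under upper-quartile scaling. Depth limits Dao most among the members, at 4 to 14 counts in each Bax/Bak control.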
